A study of Solanum virginianum with 24 samples.

Results

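Enzymes of the wound response and chitinases were followed through eggplant fruit growth as 5 genes, LAPA1, TD2, ARG2, CHI9 and CHI17, which 7 probe sets of the Affymetrix tomato GeneChip carry. They were taken from the 802 gene symbols that the platform annotation gives to 909 probe sets. LAPA1, TD2, CHI9 and CHI17 had 1 probe set each and ARG2 had 3, and all 7 were measured on every array. The genes were chosen by their measured changes at the stages described here, so their differences between stages are given as a description, with no p-value.

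The samples were fruit of eggplant cultivar PPL collected 5, 10, 20 or 50 days after the flower opened (days post anthesis, dpa), set against fruit at 0 dpa. There were 3 arrays at each of the 5 stages, and the labels name them biological replicates. Plants of all stages grew in a glasshouse and flowers were pollinated by hand. The series title names the species Solanum melongena, while the sample records give Solanum virginianum.

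In tomato leaves, chewing insects and mechanical wounding set off the jasmonate pathway, in which the receptor COI1 releases transcription of late defence genes. LAPA1 encodes an acidic leucine aminopeptidase, TD2 a threonine deaminase and ARG2 an arginase, and all are known there as jasmonate-induced proteins. TD2 and arginase remain active in the gut of leaf-eating caterpillars, where they break down threonine and arginine, and tomato flowers also hold aminopeptidase and threonine deaminase. CHI9 and CHI17 encode endochitinases, pathogenesis-related proteins that cut the chitin of fungal cell walls.

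The 5 genes followed different courses. LAPA1 had a lower mean at each stage than at the one before it. TD2 was lower at 5, 10 and 20 dpa than at 0 dpa and close to its 0 dpa value at 50 dpa. The ARG2 probe sets averaged below 0 dpa up to 20 dpa and above it at 50 dpa. CHI9 was high at 5 dpa and lowest at 10 dpa, and CHI17 stayed near its 0 dpa value up to 20 dpa and lay 2.18-fold above it at 50 dpa. All values below are log2 values minus the mean of the 0 dpa arrays that were normalised together with that stage, so 0 is the 0 dpa mean and 1 is a doubling. The deposited values were centred per probe set, so they hold no signal level and the genes cannot be ranked against each other by abundance.

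**Figure D1:**
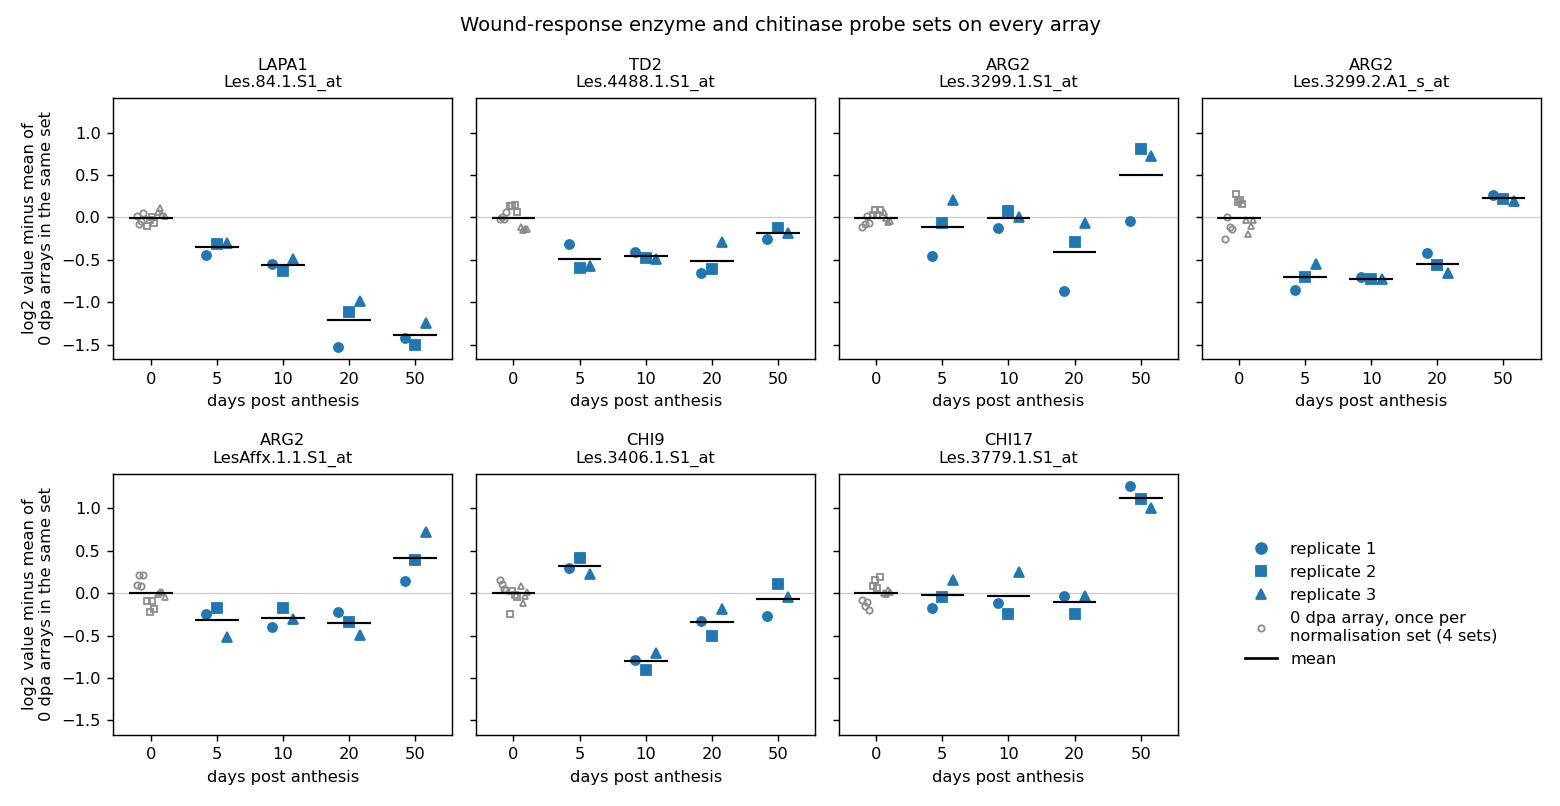
Log2 value of each probe set on each array (vertical axis, minus the mean of the 0 dpa arrays of the same normalisation set) by days post anthesis (horizontal axis, not to scale). Filled symbols are the 3 arrays of a stage, open grey symbols the 0 dpa arrays once per set, and lines the means. LAPA1 goes down to a mean of -1.39 at 50 dpa, while CHI17 is at 1.13 there.

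LAPA1 (probe set Les.84.1.S1_at) read -0.44, -0.31 and -0.30 on the 5 dpa arrays, against 0.02, -0.10 and 0.07 on the 0 dpa arrays. At 10 dpa it read -0.55, -0.63 and -0.49, against -0.08, -0.03 and 0.11 at 0 dpa. These early stages were already separate from 0 dpa, with every array below every 0 dpa array. The values at 20 and 50 dpa were lower still. The 20 dpa arrays read -1.53, -1.11 and -0.98, against -0.04, 0.01 and 0.03 at 0 dpa. At 50 dpa the values were -1.42, -1.50 and -1.25, against 0.05, -0.07 and 0.02 at 0 dpa. Neighbouring stages did not overlap from 0 to 20 dpa, and 20 and 50 dpa did.

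The log2 differences of LAPA1 from 0 dpa (± SE of the limma fit, n = 3 arrays each) were -0.35 ± 0.087 at 5 dpa, -0.56 ± 0.085 at 10 dpa, -1.21 ± 0.14 at 20 dpa and -1.39 ± 0.091 at 50 dpa. In folds, LAPA1 was 1.27-fold lower at 5 dpa and 2.62-fold lower at 50 dpa. Among the 10101 probe sets tested, it had the 138th lowest difference at 20 dpa and the 246th lowest at 50 dpa. The step between 10 and 20 dpa was its widest, at -0.65 ± 0.13 for 20 dpa minus 10 dpa. The steps were -0.21 ± 0.13 for 10 minus 5 dpa and -0.18 ± 0.13 for 50 minus 20 dpa. The last of these was -0.35 without replicate 1 of 20 dpa, the lowest LAPA1 array of the series.

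TD2 (Les.4488.1.S1_at) differed in that most of its change was already present at 5 dpa. Its 5 dpa arrays read -0.31, -0.59 and -0.57, against -0.02, 0.13 and -0.11 at 0 dpa. The 10 dpa arrays read -0.41, -0.48 and -0.49, against 0.01, 0.13 and -0.15 at 0 dpa. At these stages, as at 20 dpa, all arrays lay below all 0 dpa arrays. The 20 dpa values were -0.65, -0.61 and -0.29, against -0.02, 0.15 and -0.13 at 0 dpa. At 50 dpa they were -0.25, -0.12 and -0.18, against 0.06, 0.07 and -0.13 at 0 dpa, and the groups overlapped.

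The log2 differences of TD2 from 0 dpa were -0.49 ± 0.11 at 5 dpa, -0.46 ± 0.091 at 10 dpa, -0.51 ± 0.12 at 20 dpa and -0.19 ± 0.088 at 50 dpa. The 3 early stages overlapped each other, so no order among them stood out from the spread of arrays. The 50 dpa arrays lay above the 10 dpa arrays without overlap. The step from 20 to 50 dpa was 0.33 ± 0.11, and it ranged down to 0.26 with 1 array left out, which was replicate 1 of 20 dpa.

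ARG2 was measured by 3 probe sets that did not give the same size of change. By the manufacturer's naming, the ending of Les.3299.2.A1_s_at marks probes that match more than 1 transcript of the design, so that probe set cannot tell ARG2 from a near-identical relative such as ARG1. It read -0.86, -0.70 and -0.55 at 5 dpa, against -0.25, 0.28 and -0.03 at 0 dpa. At 10 dpa it read -0.70, -0.73 and -0.73, against 0.00, 0.18 and -0.19 at 0 dpa. The early stages were thus low on every array. The 20 dpa arrays read -0.42, -0.56 and -0.66, against -0.11, 0.21 and -0.10 at 0 dpa. At 50 dpa the order was turned round, with 0.26, 0.22 and 0.20, against -0.13, 0.16 and -0.03 at 0 dpa.

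The other probe sets of ARG2 had smaller early differences and a wider spread at 50 dpa. LesAffx.1.1.S1_at read -0.25, -0.18 and -0.52 at 5 dpa, against 0.10, -0.09 and -0.01 at 0 dpa. It read -0.40, -0.18 and -0.31 at 10 dpa, against 0.21, -0.22 and 0.01 at 0 dpa, where the groups overlapped. At 20 dpa, with -0.22, -0.34 and -0.49 against 0.08, -0.09 and 0.01 at 0 dpa, every array was below. The 50 dpa arrays, at 0.14, 0.39 and 0.72 against 0.22, -0.19 and -0.04 at 0 dpa, overlapped with 0 dpa through replicate 1 of each. The third ARG2 probe set was the least steady.

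Les.3299.1.S1_at read -0.46, -0.07 and 0.21 at 5 dpa, against -0.11, 0.03 and 0.07 at 0 dpa. Its 10 dpa arrays, -0.12, 0.08 and 0.01, against -0.08, 0.09 and -0.01 at 0 dpa, covered almost the same range. At 20 dpa it read -0.87, -0.29 and -0.06, against 0.02, 0.03 and -0.05 at 0 dpa, all below, though replicate 3 only just. Replicate 1 was its lowest array at 5, 10, 20 and 50 dpa. The 50 dpa values were -0.04, 0.81 and 0.72, against -0.06, 0.09 and -0.04 at 0 dpa, so replicate 1 stayed at the 0 dpa range and the others lay far above it. Without replicate 1 of 50 dpa the difference from 0 dpa was 0.76 instead of 0.50.

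Taken per array, the mean of the 3 ARG2 probe sets did not overlap with 0 dpa at any stage. Its log2 difference from 0 dpa was -0.37 at 5 dpa, -0.34 at 10 dpa, -0.43 at 20 dpa and 0.38 at 50 dpa. The SD of the stage's arrays was 0.06 to 0.13 up to 20 dpa and 0.23 at 50 dpa. Per probe set, in the order Les.3299.1.S1_at, Les.3299.2.A1_s_at and LesAffx.1.1.S1_at, the differences were -0.11, -0.70 and -0.31 at 5 dpa, and 0.50, 0.23 and 0.42 at 50 dpa. For the step from 20 to 50 dpa the same probe sets gave 0.90 ± 0.24, 0.78 ± 0.091 and 0.76 ± 0.14. For Les.3299.1.S1_at that step was 0.67 without replicate 1 of 20 dpa.

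The chitinase CHI9 (Les.3406.1.S1_at) had its highest and its lowest values at consecutive stages. At 5 dpa it read 0.30, 0.42 and 0.23, against 0.16, -0.25 and 0.09 at 0 dpa. At 10 dpa it read -0.79, -0.90 and -0.71, against 0.11, 0.02 and -0.12 at 0 dpa. Every 5 dpa array was thus above the 0 dpa arrays and every 10 dpa array below them. The 20 dpa arrays read -0.33, -0.50 and -0.19, against 0.05, -0.02 and -0.03 at 0 dpa. At 50 dpa the values were -0.27, 0.11 and -0.05, against 0.04, -0.05 and 0.01 at 0 dpa, which overlapped.

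The log2 differences of CHI9 from 0 dpa were 0.32 ± 0.12 at 5 dpa, -0.80 ± 0.092 at 10 dpa, -0.34 ± 0.096 at 20 dpa and -0.07 ± 0.11 at 50 dpa. The step from 5 to 10 dpa was -1.12 ± 0.11, or 2.17-fold lower at 10 dpa, the 42nd lowest of the 10101 probe sets for that step. From 10 to 20 dpa the step was 0.46 ± 0.11 and from 20 to 50 dpa 0.27 ± 0.11. In the order of its levels, 5 dpa stood apart above and 10 dpa apart below, while 0 and 50 dpa overlapped, as did 50 and 20 dpa.

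CHI17 (Les.3779.1.S1_at) showed a single step, between 20 and 50 dpa. It read -0.18, -0.05 and 0.16 at 5 dpa, against -0.08, 0.08 and 0.00 at 0 dpa. At 10 dpa the values were -0.12, -0.24 and 0.25, against -0.15, 0.16 and -0.01 at 0 dpa. At 20 dpa they were -0.03, -0.24 and -0.03, against -0.10, 0.06 and 0.04 at 0 dpa. Each of these stages overlapped with its 0 dpa arrays. At 50 dpa it read 1.27, 1.11 and 1.00, against -0.20, 0.19 and 0.01 at 0 dpa. All 50 dpa arrays were above every other array of the series for this probe set. The log2 differences from 0 dpa were -0.02 ± 0.11 at 5 dpa, -0.04 ± 0.14 at 10 dpa, -0.10 ± 0.093 at 20 dpa and 1.13 ± 0.12 at 50 dpa, and the step from 20 to 50 dpa was 1.22 ± 0.13. That step was the 117th highest of all probe sets, and the difference at 50 dpa the 356th highest.

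**Figure D2:**
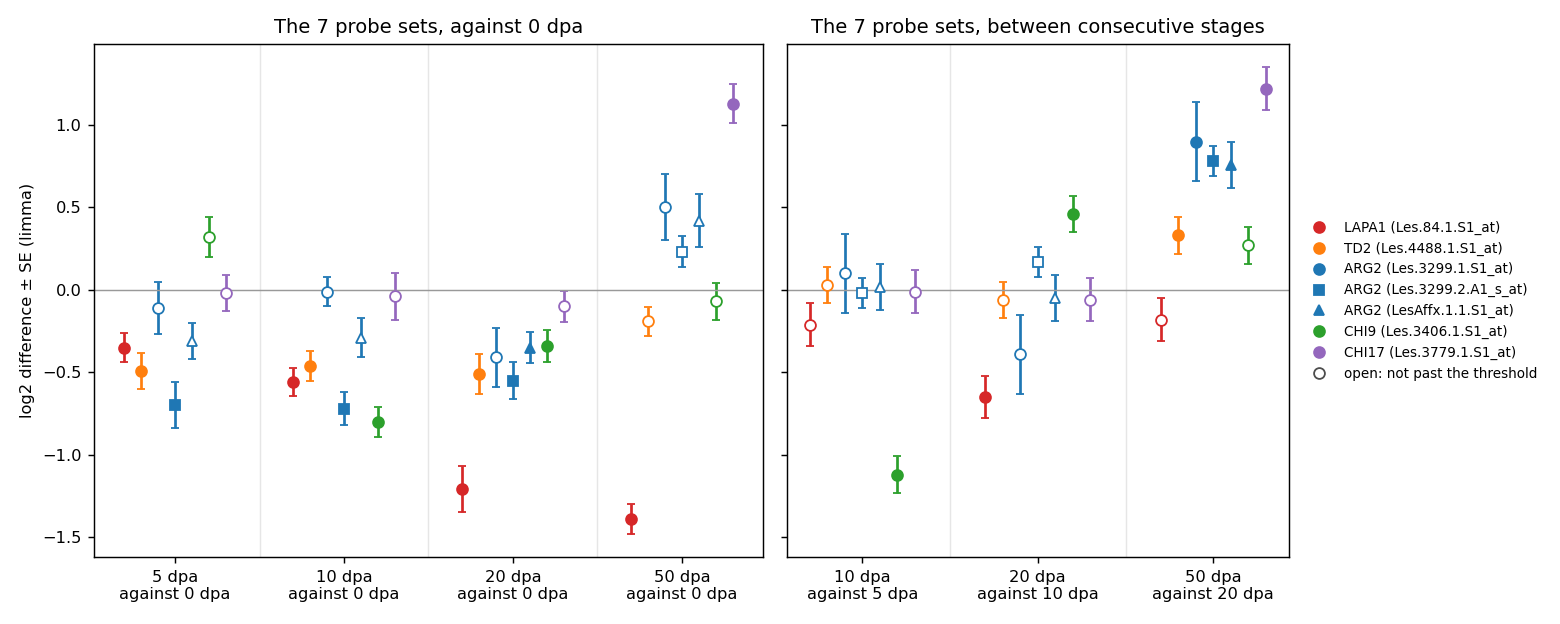
Log2 difference ± SE (limma, vertical axis) of the 7 probe sets, for each stage against 0 dpa (left) and for each stage against the one before it (right). Filled symbols passed an adjusted p of 0.05 over all 10101 probe sets, which is a description here, since the genes were chosen on these values. The step from 20 to 50 dpa is upward for CHI17 (1.22), TD2 (0.33) and the ARG2 probe sets (0.76 to 0.90).

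Counted with the threshold of the fit across all probe sets (limma, adjusted p of 0.05), 3 of the 7 probe sets were called lower at 5 dpa, where 16.4% of all probe sets were called lower and 15.6% higher. At 10 dpa 4 were called lower, against 19.4% of all lower and 15.9% higher. At 20 dpa 5 were called lower, against 20.1% of all lower and 17.8% higher. At 50 dpa 1 was called lower and 1 higher, LAPA1 and CHI17, against 19.5% of all lower and 20.6% higher. The median of the 7 log2 differences was -0.31, -0.46, -0.41 and 0.23 at 5, 10, 20 and 50 dpa, and the median over all probe sets was -0.01, -0.03, -0.02 and 0.02. Nothing is read from these counts or from the gap between the medians, because the same contrasts chose the genes. ARG2 alone also gives 3 of the 7 values.

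The calls near the threshold depended on single arrays or on the test. LAPA1 at 5 dpa was not called without replicate 1 or 3 of 0 dpa (log2 difference -0.34 and -0.31). At 20 dpa, CHI9 was not called without replicate 2 of 20 dpa (-0.26) or replicate 1 or 2 of 0 dpa. LesAffx.1.1.S1_at was not called there without replicate 2 or 3 of 20 dpa or replicate 1 or 3 of 0 dpa, with differences of -0.35 to -0.28. In the methods' t-test, an unpaired test adjusted by Benjamini-Hochberg, 1 of the 7 was called lower at 5 dpa and 2 at 20 dpa. At 50 dpa, 3 were called higher without replicate 1 of 50 dpa and 2 without replicate 2 of 0 dpa.

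Between consecutive stages, the values were set across separately normalised sets, through the 0 dpa arrays they share. At 10 against 5 dpa, CHI9 was called lower, and 12.2% of all probe sets were called lower and 10.3% higher. At 20 against 10 dpa, LAPA1 was called lower and CHI9 higher, beside 17.3% of all lower and 17% higher. At 50 against 20 dpa, 5 of the 7 were called higher, the 3 of ARG2, TD2 and CHI17, beside 15.5% of all lower and 19.3% higher. The count at 50 against 20 dpa was 3 without replicate 1 of 20 dpa. The TD2 call at that step was lost without replicate 1 or 2 of 20 dpa, without replicate 2 or 3 of 50 dpa (0.26 to 0.33), and when only the 6 arrays of these stages were fitted. These steps come from the values that chose the genes, so they too are a description.

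Close relatives of the 5 genes on the array, which were picked for their family after values were seen, did not always have the same course. LAPA2, the near-identical second acidic aminopeptidase, was lower at 5 dpa (log2 difference -0.32 ± 0.075, limma adjusted p = 0.0135), as LAPA1 was, and had -0.06, 0.04 and -0.17 at 10, 20 and 50 dpa. At 50 dpa, where LAPA1 lay at -1.39, all LAPA2 arrays were below 0 dpa as well. LAPA2 did not pass the threshold there in limma (adjusted p = 0.093), and was called lower by the methods' t-test (adjusted p = 0.0115) and in the limma fit of all 15 arrays (adjusted p = 0.0405). The difference between LAPA1 and LAPA2 was not tested. The probes of these paralogs could each take up RNA of the other, and eggplant RNA was read on tomato probes, so the split between them is uncertain.

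ARG1, the second tomato arginase, resembled ARG2. It had log2 differences of -0.17 at 5 dpa, -0.54 ± 0.15 at 10 dpa (limma adjusted p = 0.0239), -0.35 at 20 dpa (adjusted p = 0.105) and 0.62 ± 0.081 at 50 dpa (adjusted p = 0.000471). Its call at 10 dpa was lost without replicate 2 or 3 of 10 dpa or replicate 3 of 0 dpa (-0.48 to -0.38). That call was also not made by the methods' t-test (adjusted p = 0.137). Its step from 20 to 50 dpa was 0.97 ± 0.11 (adjusted p = 1.44e-05). Across the 12 arrays of the later stages, ARG1 had a Pearson r of 0.89 with Les.3299.2.A1_s_at, whose probes it may share. With LesAffx.1.1.S1_at it had r = 0.79 and with Les.3299.1.S1_at r = 0.50. ARG1 also had r = 0.89 with the chitinase CHI17, so the likeness was not particular to the arginases. Of the chitinases, CHI3 rose at 50 dpa by 0.68 ± 0.17 (limma adjusted p = 0.0157), and this was 0.67 with an adjusted p of 0.0524 without replicate 3 of 0 dpa. CHI14 had 0.30 ± 0.25 at 50 dpa (adjusted p = 0.387). Values of CHI3 and CHI14 at 5, 10 and 20 dpa lay between 0.03 and 0.14 and did not pass the threshold.

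**Figure D3:**
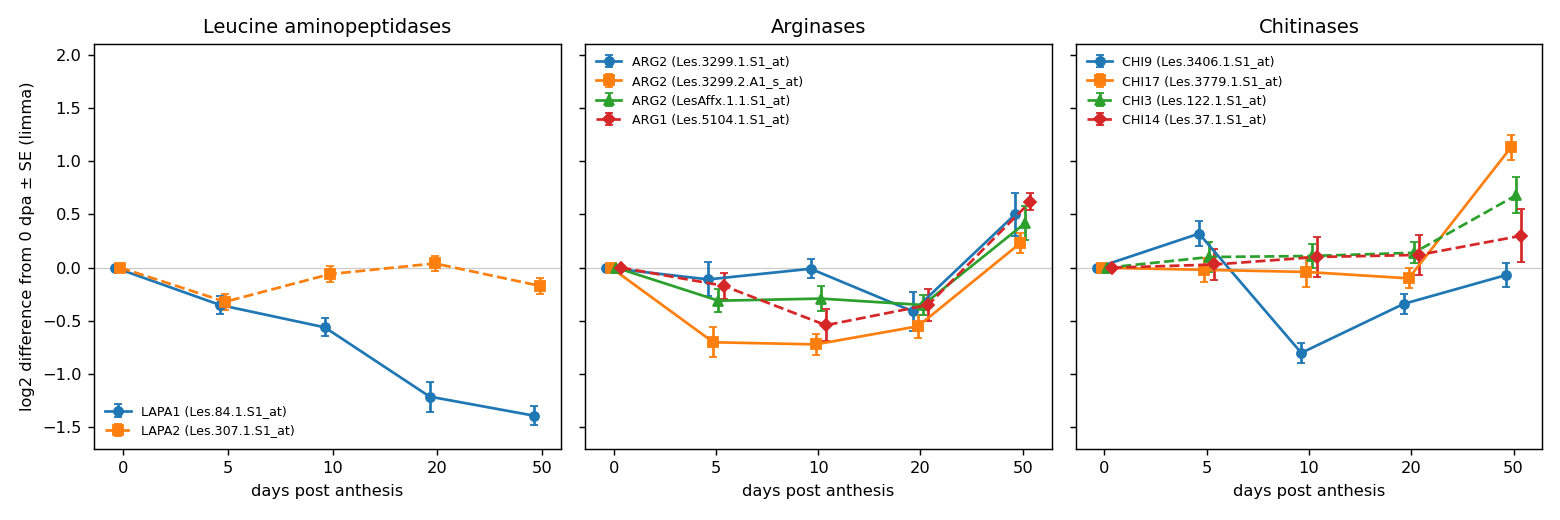
Log2 difference from 0 dpa ± SE (limma, vertical axis) by days post anthesis (horizontal axis, not to scale) for the aminopeptidases (left), arginases (middle) and chitinases (right). Solid lines are probe sets of the 5 genes, dashed lines their relatives. LAPA1 lies at -1.39 and LAPA2 at -0.17 at 50 dpa, and ARG1 (0.62) lies with the ARG2 probe sets (0.23 to 0.50) at 50 dpa.

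Correlations across the same 12 arrays describe how alike the courses were. The arrays share the 0 dpa mean of their set and fall into 4 stages of 3, so no p-value is given. The ARG2 probe sets correlated with each other at r of 0.57, 0.63 and 0.84. Les.3299.2.A1_s_at and CHI17 had r = 0.94, while LAPA1 and that ARG2 probe set had r = -0.76. CHI9 and CHI17, both chitinases, had r = 0.22, and CHI17 and CHI3 had r = 0.77. LAPA1 and LAPA2 had r = -0.44.

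Among the other probe sets with a symbol, the 3 most like each of the 7 by Pearson r were named. For LAPA1 these were LOC544102 (0.97), ArcA2 (0.96) and CDKB1 (0.95), the last a cyclin-dependent kinase of the B class. For TD2 they were PLDb1 (0.90), a phospholipase D, pip1 (0.85) and AAP2 (0.85), an amino acid permease. CHI17 was nearest to TomloxE (0.96), a lipoxygenase, Eix1 (0.96), which belongs to the receptors of a fungal xylanase, and AAP2 (0.96). For CHI9 the nearest were CTR3 (0.89), LOC544252 (0.89) and ProT3 (0.81). The ARG2 probe sets did not share a nearest gene. Les.3299.2.A1_s_at was nearest to XET2 (0.98), a xyloglucan-modifying enzyme, LOC543677 (0.98) and LOC543511 (0.97). LesAffx.1.1.S1_at was nearest to CHS1 (0.92), chalcone synthase, ST3 (0.92) and LOC543864 (0.91). Les.3299.1.S1_at was nearest to PAP1 (0.88), PTI4 (0.84) and ctu1 (0.82).

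Further genes of wounding and defence were taken from 6 lists, which gave 49 genes on 56 probe sets. At 5 dpa 6 of the 56 rose and 11 fell (limma, adjusted p of 0.05), at 10 dpa 5 and 15, at 20 dpa 7 and 17, and at 50 dpa 12 and 15. As shares these were 10.7% higher and 19.6% lower at 5 dpa, beside 15.6% and 16.4% of all probe sets. At 10 dpa they were 8.93% higher and 26.8% lower, beside 15.9% and 19.4% of all. At 20 dpa they were 12.5% and 30.4%, beside 17.8% and 20.1% of all, and at 50 dpa 21.4% and 26.8%, beside 20.6% and 19.5% of all. The medians of the 56 log2 differences were -0.15, -0.04, -0.11 and -0.06 at 5, 10, 20 and 50 dpa. The count that rose at 5 dpa was 3 without replicate 1 of 5 dpa, replicate 1 of 0 dpa or replicate 3 of 0 dpa.

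Of the 13 other probe sets for chitinases, glucanases and pathogenesis-related proteins, 4 rose at 50 dpa, with a median of 0.19. That is 30.8%, beside 20.6% of all probe sets. At 20 dpa 1 rose, P69B, and 1 fell, CEVI57, which is also in the inhibitor list. Each is 7.69%, beside 17.8% of all probe sets higher and 20.1% lower. At 5 dpa 0 were called by limma or by the methods' t-test, with 1 at an unadjusted p under 0.05 in each, and at 10 dpa 0 were called by either, with 0 at an unadjusted p under 0.05. Besides CHI3, the largest rises at 50 dpa were those of PR-P2 (0.53 ± 0.15, limma adjusted p = 0.0247) and the thaumatin-like PR-5 (0.48 ± 0.14, adjusted p = 0.029), and the remaining one was TSI-1 (0.46). P69B and TSI-1 were named after their values were seen, and their calls were lost without any of 4 single arrays for P69B and without replicate 2 or 3 of 0 dpa for TSI-1. None of the 4 rises at 50 dpa passed in the methods' t-test (adjusted p of 0.1 for CHI3, 0.117 for PR-P2, 0.122 for PR-5 and 0.0832 for TSI-1). PR-P2 was not called without replicate 1 of 50 dpa (0.37) or replicate 1 or 3 of 0 dpa, and PR-5 without replicate 1 or 3 of 50 dpa or replicate 1 or 2 of 0 dpa (down to 0.38).

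The list for aminopeptidases and for threonine and arginine breakdown had 11 probe sets for 7 genes. Of these, 4 were for the symbol adc1, whose function the annotation does not spell out and which may not be an arginine decarboxylase. The list also held PRO1 and PRO2, which may not be enzymes of that breakdown, so its counts and shares are not those of breakdown alone. Of the 11, 4 were called lower at 5 dpa, 6 at 10 dpa, 6 at 20 dpa and 5 at 50 dpa, and 1 higher at each of 5, 20 and 50 dpa. As shares, 36.4%, 54.5%, 54.5% and 45.5% were lower at 5, 10, 20 and 50 dpa, beside 16.4%, 19.4%, 20.1% and 19.5% of all probe sets. The symbol adc1 gave 2 of the 4 lower calls at 5 dpa, 3 of 6 at 10 dpa, 3 of 6 at 20 dpa and 2 of 5 at 50 dpa, and the higher call at 5 dpa, so the counts are of probe sets and not of genes. ADC, arginine decarboxylase, which uses the substrate of arginase, had -0.14 and -0.06 at 5 and 10 dpa. It fell by 1.51 ± 0.084 on the log2 scale at 20 dpa (limma adjusted p = 3.41e-06) and fell by 3.32 ± 0.09 at 50 dpa (adjusted p = 1.01e-07), where the means of ARG1 and of the ARG2 probe sets were above 0 dpa. ODC, ornithine decarboxylase, which takes the product of arginase towards polyamines, fell at all 4 stages, most at 20 dpa (-1.48 ± 0.082, limma adjusted p = 3.38e-06). The 4 probe sets of adc1 disagreed, from -2.91 to 0.11 at 50 dpa. The other calls, named after their values were seen, were those of LAPA2 and ARG1 above and of PRO2 at 10 dpa (-0.34) and 20 dpa (-0.32). PRO1 was called on Les.42.1.S1_at at 20 dpa (0.39) and 50 dpa (-0.47). Its other probe set, Les.3629.1.S1_at, was called at neither stage (-0.22, limma adjusted p = 0.191, and -0.07, adjusted p = 0.701). The call on Les.42.1.S1_at at 20 dpa was lost without replicate 2 of 20 dpa or replicate 1 or 2 of 0 dpa (0.31 to 0.36). Its calls at 20 and 50 dpa were not made by the methods' t-test (adjusted p = 0.0755 and 0.0599).

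Of 12 probe sets for jasmonate synthesis and signalling, 2 rose and 5 fell at 5 dpa, 2 rose and 2 fell at 10 dpa, 1 rose and 6 fell at 20 dpa, and 6 fell at 50 dpa. As shares, 16.7%, 16.7%, 8.33% and 0% rose at 5, 10, 20 and 50 dpa, beside 15.6%, 15.9%, 17.8% and 20.6% of all probe sets. Those that fell were 41.7%, 16.7%, 50% and 50%, beside 16.4%, 19.4%, 20.1% and 19.5% of all. Both shares at 10 dpa were near those of all probe sets. AOC, allene oxide cyclase of jasmonate synthesis, fell by 0.71 on the log2 scale at 5 dpa and fell by 1.53 ± 0.081 at 50 dpa (limma adjusted p = 2.81e-06). AOS, allene oxide synthase, the enzyme before it, rose at 5 dpa (0.25) and 10 dpa (0.38) and fell at 20 dpa (-0.76) and 50 dpa (-0.57 ± 0.14, limma adjusted p = 0.0111). OPR3, a reductase later in the same path, rose at 5 dpa (0.36) and fell at 20 dpa (-0.49) and 50 dpa (-0.60, adjusted p = 0.000601). COI1, the jasmonate receptor, fell at 20 dpa (-0.42, limma adjusted p = 0.0104). The lipoxygenases loxD and LOX1.1 fell at 5 dpa (-0.36) and 20 dpa (-0.33), and were called at no other stage. AOS, OPR3, COI1, loxD and LOX1.1 were picked after their values were seen. The call of AOS at 5 dpa was lost without any single array (0.22 to 0.29), that of loxD without replicate 1 of 5 dpa or replicate 1 or 3 of 0 dpa, and that of LOX1.1 without any single array but replicate 1 of 0 dpa (-0.36 to -0.23). The methods' t-test did not make the calls of COI1 and LOX1.1 at 20 dpa or AOS at 50 dpa (adjusted p = 0.0511, 0.111 and 0.073).

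Several genes of that list act on other branches of the lipoxygenase pathway. The lipoxygenase loxC, known in tomato for fruit volatiles, fell at 5 dpa (-0.75) and 50 dpa (-0.62) and rose at 10 dpa (1.25) and 20 dpa (1.44 ± 0.072, limma adjusted p = 1.92e-06). HPL, hydroperoxide lyase, which was also named after its values were seen, fell at 5 dpa (-0.42), 20 dpa (-0.35) and 50 dpa (-0.63). At 5 dpa its call was lost without replicate 3 of 5 dpa or replicate 1 or 3 of 0 dpa, and in the methods' t-test (adjusted p = 0.0719). DES, divinyl ether synthase, fell at all 4 stages, most at 5 dpa (-0.82 ± 0.15, adjusted p = 0.0045). Its calls at 5, 10 and 50 dpa were not made by the methods' t-test. DES was also not called at 10 dpa without replicate 2 or 3 of 10 dpa or replicate 2 of 0 dpa, nor at 50 dpa without replicate 3 of 50 dpa or replicate 1 or 2 of 0 dpa, with values between -0.50 and -0.41.

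Signalling genes went both ways. Of 16 probe sets, 2 rose and 2 fell at 5 dpa, 2 and 6 at 10 dpa, 4 and 3 at 20 dpa and 5 and 2 at 50 dpa. As shares, 12.5%, 12.5%, 25% and 31.2% rose at 5, 10, 20 and 50 dpa, beside 15.6%, 15.9%, 17.8% and 20.6% of all probe sets. Those that fell were 12.5%, 37.5%, 18.8% and 12.5%, beside 16.4%, 19.4%, 20.1% and 19.5% of all. MPK3, a MAP kinase activated by wounding and pathogens, rose by 1.49 ± 0.099 at 50 dpa on Les.4316.1.S1_at (limma adjusted p = 1.03e-05), and by 1.31 on LesAffx.16424.1.S1_s_at (adjusted p = 2.37e-05), while its remaining probe set had 0.13. The same pair of probe sets rose at 20 dpa (0.53 and 0.60). MKK4, a kinase of the tier above MAP kinases, fell at all 4 stages, most at 10 dpa (-1.43 ± 0.075, adjusted p = 1.7e-06). PTI1, a kinase that binds the resistance protein Pto, rose by 1.18 ± 0.078 at 50 dpa (adjusted p = 1.06e-05). The rest of the calls were named after their values were seen. RBOH1, an NADPH oxidase, rose at 5 dpa (1.11) and 20 dpa (1.09), and Wfi1 rose at 5 dpa (0.26) and 10 dpa (0.27). PTI6, a transcription factor that also binds Pto, fell at 5 dpa (-0.94) and 10 dpa (-1.02) and rose at 50 dpa (0.79), while PTI4 fell at 10 dpa (-0.34) and 20 dpa (-0.48). NPR1, which works in the salicylic acid response, fell at 10 dpa (-0.47), and ERF2 fell at 50 dpa (-0.41). The symbol twi1 fell at 10 dpa (-0.38) and rose at 50 dpa (0.52), and CDPK1, a calcium-dependent kinase, rose at 10 dpa (0.42) and fell at 20 dpa (-0.37). The methods' t-test did not make the calls of PTI6 at 5 dpa and ERF2 at 50 dpa (adjusted p = 0.0785 and 0.0511). Nor did it make those of Wfi1, PTI4, NPR1 and twi1 at 10 dpa, CDPK1 at 20 dpa and twi1 at 50 dpa. Calls lost without single arrays were those of Wfi1 at 5 and 10 dpa, PTI4, NPR1, PTI1 and twi1 at 10 dpa, CDPK1 at 20 dpa and twi1 at 50 dpa. Values with 1 array left out were lowest in size for Wfi1 (0.22 without replicate 1 of 0 dpa), PTI4 (-0.27 without replicate 2 of 10 dpa), NPR1 (-0.34 without replicate 1 of 10 dpa), twi1 (-0.27 without replicate 2 of 10 dpa, 0.38 without replicate 3 of 50 dpa) and CDPK1 (-0.31 without replicate 1 or 3 of 20 dpa).

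Of 3 probe sets for proteinase inhibitors and the systemin response, 1 rose at 5 dpa, 1 rose at 10 dpa, 1 fell at 20 dpa, and 1 rose and 1 fell at 50 dpa. Each call is 33.3% of the 3, beside 15.6% to 20.6% of all probe sets higher and 16.4% to 20.1% lower over the stages. All the rises were of the symbol AI, at 5 dpa (0.59 ± 0.11, limma adjusted p = 0.00544), 10 dpa (0.55) and 50 dpa (0.40). The annotation does not spell out AI or ARPI, and they may not be proteinase inhibitors. CEVI57, named for its induction by a viroid, fell at 20 dpa (-0.25 ± 0.082, adjusted p = 0.0416). ARPI fell at 50 dpa (-0.26 ± 0.088, adjusted p = 0.0473). The calls of CEVI57 and ARPI were each lost with the replicate number as a block and with any of 4 single arrays left out, at log2 differences of -0.26 to -0.21. CEVI57 was also lost with centring or quantile normalisation, and ARPI in the methods' t-test.

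Of 3 wound peroxidase probe sets, 1 fell at 10 dpa, 1 fell at 20 dpa, and 1 rose and 1 fell at 50 dpa. Each call is 33.3% of the 3. Of all probe sets, 19.4%, 20.1% and 19.5% fell at 10, 20 and 50 dpa, and 20.6% rose at 50 dpa. The early fall was that of TPX2 at 10 dpa (-0.41) and 20 dpa (-0.42), and at 20 dpa its call was lost in the methods' t-test and without replicate 2 of 20 dpa or replicate 1 of 0 dpa. At 5 dpa 0 were called by limma or the methods' t-test, with 1 at an unadjusted p under 0.05 in each. TPX2 fell by 0.67 ± 0.11 on the log2 scale at 50 dpa (limma adjusted p = 0.00161) and TPx1 rose by 0.48 ± 0.096 (adjusted p = 0.00479).

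**Figure D4:**
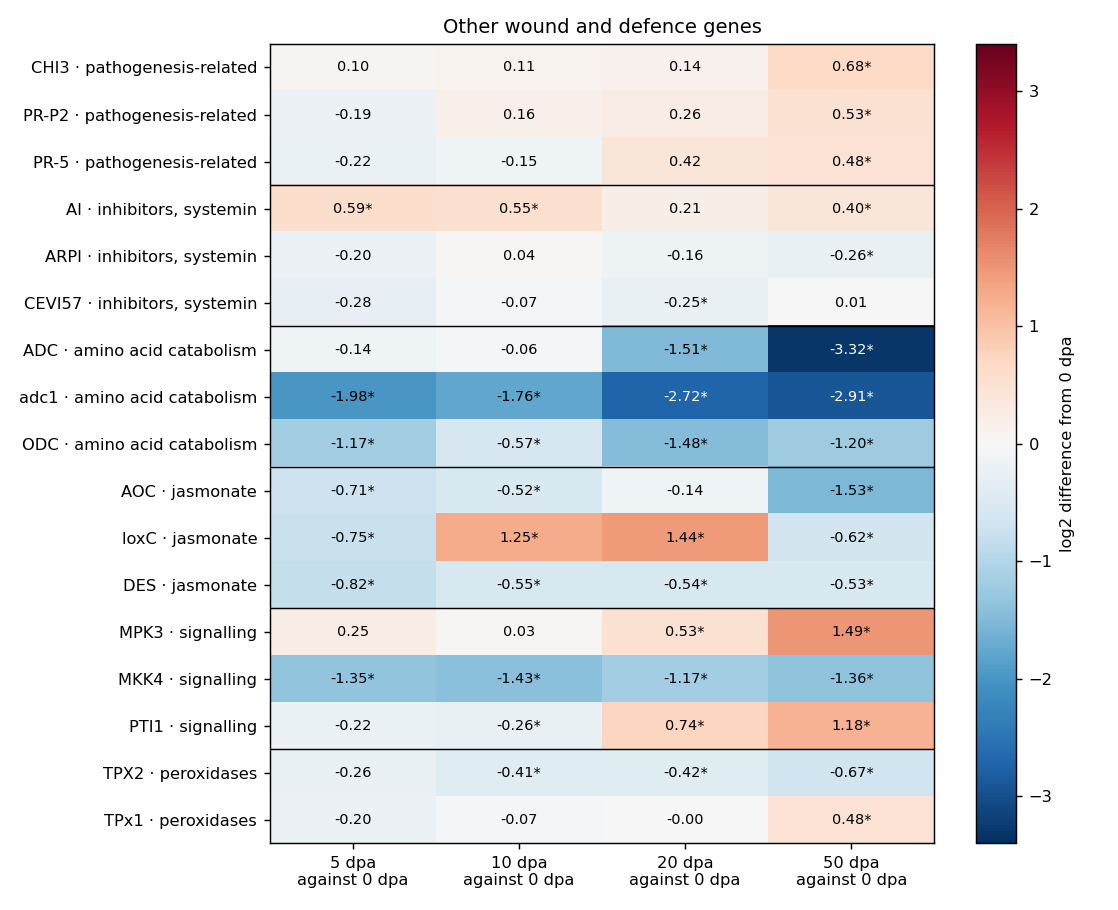
Log2 difference from 0 dpa (colour and printed number) of the other wound and defence genes with the largest changes in each of 6 lists, by stage. An asterisk marks a limma adjusted p under 0.05. ADC reaches -3.32 and MPK3 1.49 at 50 dpa.

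Whole fruit holds other material, and in bulk RNA fewer cells of a type cannot be told apart from less RNA per cell. Of 4 pollen and anther markers, 0 were called at any stage by limma or the methods' t-test. At 5 dpa 0 had an unadjusted p under 0.05 in limma and 1 in the methods' t-test, and at 10, 20 and 50 dpa 0 in both. Their log2 differences lay between -0.20 and 0.35 over all stages, with medians of 0.05, 0.03, -0.08 and -0.05. Of 2 seed markers, the dehydrin TAS14 rose at 50 dpa (0.47 ± 0.12, limma adjusted p = 0.0166), the stage at which CHI17 and ARG1 were high. The other, MAN1, was not called there (-0.04 ± 0.16, limma adjusted p = 0.877). At 5 and 20 dpa 0 seed markers were called, with 0 at an unadjusted p under 0.05 in limma, and at 10 dpa 0 were called, with 1 at an unadjusted p under 0.05, and the methods' t-test called 0 at these stages.

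A measure of RNA quality also moved with the stages. The 5′ minus 3′ signal of the actin control was above 0 dpa by 1.09, 0.37, 0.52 and 0.39 on the log2 scale at 5, 10, 20 and 50 dpa, and that of the GAPDH control by 0.77, 0.69, 0.95 and 0.32. The part of these controls and of the seed markers in the differences above was not tested.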

How the data were processed

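Fruit RNA was measured on 15 arrays. Per the series design text and the submitters' processing notes, the authors made the deposited log2 values with RMA, the robust multi-array average. Per the labels, the 0 dpa arrays were normalised once with each later stage, which gives 24 columns in 4 sets of 6. In each set 100% of the 10209 probe sets had a median within 1e-05 of 0, so the log2 values were centred by the authors. A positive difference was taken as higher expression, which could not be checked against scanner signals. Symbols are those of the platform's annotation of 2007.

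After 108 control probe sets were left out, each stage was compared with its own 0 dpa arrays by the two-sided moderated test of limma 3.58.1 (R 4.3.3; functions lmFit and eBayes), adjusted by Benjamini-Hochberg over 10101 probe sets. Consecutive stages were fitted on 12 arrays relative to the 0 dpa mean, whose error is not in those SEs. The fit was tested on simulated data. The precision is limited by 3 arrays a stage. No low-signal filter was possible. From each list the 3 genes with the largest absolute change past the threshold at any stage were named, and for each of the 7 probe sets the 3 nearest by correlation. The members and lists were chosen with earlier results of these data known. Array-scan batches are not given in the sources used here. Same-numbered arrays correlated at -0.0168 to 0.102 in their deviations, and differently numbered arrays at -0.11 to 0.0511. Both ends of the range were higher for same-numbered arrays in each comparison, though the ranges overlapped. As these correlations were small, replicate numbers were not taken as pairs in the main fit. Alternatives were centring, quantile normalisation, the replicate number as a block, the methods' t-test, 1 fit over 15 arrays, a robust prior, control probe sets kept, and each array left out. Plots were drawn with matplotlib 3.10.9.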

Additional observations from a re-analysis of the deposited data

Results flagged for a closer look

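Some probe sets had all arrays of 1 stage above, and all arrays of another stage below, the 0 dpa arrays normalised with them. ARG2 on Les.3299.2.A1_s_at was above 0 dpa at 50 dpa (log2 difference 0.23, not called) and below it at 5, 10 and 20 dpa (-0.70, -0.72 and -0.55). CHI9 was above 0 dpa at 5 dpa (0.32, not called) and below it at 10 and 20 dpa (-0.80 and -0.34). Steps between consecutive stages were fitted for these genes, at -1.12 from 5 to 10 dpa for CHI9 and 0.78 from 20 to 50 dpa for this ARG2 probe set. They are given as a description, since these values were part of what chose the genes.

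PTI1 lay below 0 dpa at 5 dpa (-0.22, limma adjusted p = 0.0694, not called), was lower at 10 dpa (-0.26) and was higher at 20 and 50 dpa (0.74 and 1.18), and its step from 10 to 20 dpa was 0.99 (limma adjusted p = 2.43e-07). Its call at 10 dpa was lost without replicate 2 or 3 of 10 dpa or replicate 1 or 2 of 0 dpa (-0.26 to -0.24). The lipoxygenase loxC was lower at 5 and 50 dpa (-0.75 and -0.62) and higher at 10 and 20 dpa (1.25 and 1.44). Its steps were 2.00 from 5 to 10 dpa (limma adjusted p = 2.13e-08) and -2.07 from 20 to 50 dpa (adjusted p = 4.35e-10). TPx1 lay below 0 dpa at 5 dpa (-0.20, limma adjusted p = 0.151, not called) and was higher at 50 dpa (0.48). The difference between 50 and 5 dpa was not tested for TPx1.

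Among the other genes, AOS was higher at 5 and 10 dpa (0.25 and 0.38) and lower at 20 and 50 dpa (-0.76 and -0.57), with a step from 10 to 20 dpa of -1.14 (limma adjusted p = 8.26e-06). RBOH1 was higher at 5 and 20 dpa (1.11 and 1.09) and lay below 0 dpa at 50 dpa (-0.32, adjusted p = 0.135, not called), with a step from 20 to 50 dpa of -1.41 (limma adjusted p = 6.77e-06). CDPK1 was higher at 10 dpa (0.42) and lower at 20 dpa (-0.37), a step of -0.79 (limma adjusted p = 0.000956). A probe set of PRO1 was higher at 20 dpa (0.39) and lower at 50 dpa (-0.47), a step of -0.85 (limma adjusted p = 0.00018). ARG1 was higher at 50 dpa (0.62), lower at 10 dpa (-0.54) and below 0 dpa at 20 dpa (-0.35, adjusted p = 0.105, not called), with a step from 20 to 50 dpa of 0.97 (limma adjusted p = 1.44e-05). PTI6 was higher at 50 dpa (0.79) and lower at 5 and 10 dpa (-0.94 and -1.02), and twi1 was higher at 50 dpa (0.52) and lower at 10 dpa (-0.38). OPR3 was higher at 5 dpa (0.36) and lower at 20 and 50 dpa (-0.49 and -0.60). For PTI6, twi1 and OPR3 only steps between consecutive stages were fitted, and stages further apart were not compared directly. PTI6 had steps of 0.90 from 10 to 20 dpa and 0.91 from 20 to 50 dpa (limma adjusted p = 0.00155 and 0.00138). For twi1 the same steps were 0.44 (limma adjusted p = 0.0535, not called) and 0.46 (adjusted p = 0.043). OPR3 had steps of -0.37 from 5 to 10 dpa and -0.47 from 10 to 20 dpa (limma adjusted p = 0.00601 and 0.000632).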

How the results depend on the processing

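No called log2 difference of a named gene changed sign. For the 7 probe sets against 0 dpa, 349 alternative values left the result as it was, 15 lost the call and 8 gained one. The mean of the ARG2 probe sets carries no call and was judged by its value. It moved that value in 4 cases and otherwise counts among the 349. Between consecutive stages, 180 alternative values left the call as it was, 6 lost it and 3 gained one. For the other wound and defence probe sets against 0 dpa, 1972 left it, 134 lost it and 26 gained one. The methods' t-test called 2113 probe sets at 5 dpa against 3230 by limma, 1 instead of 3 of the 7 lower at 5 dpa, 2 instead of 5 lower at 20 dpa, and 7 instead of 12 other wound and defence probe sets higher at 50 dpa. The fit of all 15 arrays called 1 instead of 0 of the 7 higher at 5 dpa (CHI9) and 2 instead of 1 at 50 dpa. With the replicate block, 2 instead of 1 were lower at 20 against 10 dpa. With 1 array left out, 1 to 3 of the 7 were higher at 50 dpa (3 without replicate 1 of 50 dpa, 2 without replicate 2 of 0 dpa), 3 to 6 higher and 0 to 1 lower at 50 against 20 dpa, and 3 to 5 lower at 20 dpa (3 without replicate 2 of 20 dpa or replicate 1 of 0 dpa). Of the other wound and defence probe sets, 3 to 4 were then higher at 5 dpa. The causes were not tested, beyond fewer arrays in a fit. Signal over background is not in these values, so no limit from dim probes could be set.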
